A study of Mus musculus with 38 samples.

Results

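Cyclins, cyclin-dependent kinases (CDKs), their inhibitors and the genes named for cell division cycle (CDC) mutants of yeast were followed in the spleen of DBA/2 mice after cyclophosphamide, an alkylating drug that damages DNA and kills dividing cells. The genes were taken by symbol from single-gene array probes. The symbol had to begin with Ccn and a letter, Cdk and a digit, Cdkn, Cdkl, or Cdc and a digit. Cdk1, Cdc20, Cdc6 and Cdkn1a were left out by this rule, and genes beginning with Ccdc do not belong to the families. The rule gave 59 probes for 57 genes. Of these, 36 probes for 35 genes had a value in 3 or more mice of every group and could be tested, among 5925 genes tested with single-gene probes in all.

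Splenocytes were collected 1 day (4 mice), 2 days (5 mice) and 5 days (5 mice) after 83 mg/kg cyclophosphamide, and from untreated mice (5 mice). All 19 mice were of the DBA/2 strain, and no other genotype, agent or age is given in the sources used here. Each mouse had 2 technical array columns, 38 in all, with total RNA amplified and labelled with Cy5. The second channel of every array held the same kind of Cy3-labelled pool, described as untreated bone marrow cells of the same strain. Its treatment field names cyclophosphamide, a contradiction that the sources used here do not settle. Values are log2 ratios of spleen over this marrow pool. Array medians lay between -0.021 and 0.013, so a value of 0 means a ratio near that of the middle probe of an array. It need not mean an equal amount of RNA in spleen and marrow. A log2 difference is the mean log2 ratio of a treated group minus that of untreated mice, in which the pool cancels.

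The arrays held 5829 to 10407 values each, and the 2 technical columns of a mouse correlated at 0.581 to 0.962. The correlation was below 0.7 in untreated mice 2 and 4 and in day 5 mouse 5. B cell and T cell marker lists averaged above 0 in all 5 untreated mice (0.55 and 0.39 on average), and a neutrophil and granule list averaged -1.91, below 0 in all 5. The labelled tissue and the direction of the ratio were read from these lists. The number of mice limits the precision. In RNA from whole splenocytes, fewer cells of a type and less RNA per cell cannot be told apart. Each treated day was its own set of mice, and all 3 days share the same untreated mice.

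A cyclin is the regulatory subunit of a CDK, and the pair drives one step of the cell cycle. D-type cyclins with Cdk4 or Cdk6 start the exit from G1, cyclin E and cyclin A with Cdk2 drive S phase, and cyclin A and cyclin B with Cdk1 drive mitosis. Small INK4 proteins (Cdkn2a to Cdkn2d) block Cdk4 and Cdk6, and the Cip and Kip proteins (Cdkn1a to Cdkn1c) bind cyclin and CDK pairs. Several further cyclins and CDKs act in transcription, and CDC42 is a GTPase of cell polarity that carries a CDC name without being part of the cycle engine. In the spleen of the mouse, erythroid precursors and activated lymphocytes are the main dividing cells.

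The 2 genes that passed the test were Cdkn2c and Ccndbp1. Cdkn2c encodes the INK4 inhibitor p18, and Ccndbp1 encodes a cyclin D-binding protein of the helix-loop-helix type. Their upstream sequences are shown because they are the genes that passed the test. Each is the 250 bases before a RefSeq start (GRCm38.p6), read 5′ to 3′ along the gene, with GC boxes (GGGCGG) in capitals. The Cdkn2c stretch lies at chr4:109666757-109667006 on the minus strand, and the Ccndbp1 stretch at chr2:121008158-121008407 on the plus strand.
Cdkn2c: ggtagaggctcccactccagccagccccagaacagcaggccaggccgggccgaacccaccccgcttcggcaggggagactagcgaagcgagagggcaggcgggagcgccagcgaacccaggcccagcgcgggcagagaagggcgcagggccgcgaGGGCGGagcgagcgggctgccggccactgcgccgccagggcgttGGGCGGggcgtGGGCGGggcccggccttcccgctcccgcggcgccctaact
Ccndbp1: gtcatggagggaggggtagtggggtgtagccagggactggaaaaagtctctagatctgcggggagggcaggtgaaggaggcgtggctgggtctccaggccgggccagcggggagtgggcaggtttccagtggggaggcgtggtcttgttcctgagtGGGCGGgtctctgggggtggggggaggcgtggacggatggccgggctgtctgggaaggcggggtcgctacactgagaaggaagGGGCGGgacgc
RefSeq gives a second start for Cdkn2c, whose 250 upstream bases held 0 GC boxes and are not shown. The Cdkn2c stretch shown held 3 GC boxes and was 77.2% G or C, and the Ccndbp1 stretch held 2 and was 67.6% G or C, against a median of 52.4% over 32851 promoters. The motifs searched, on both strands of all upstream stretches, are known from cell cycle promoters. They were the cell cycle homology region (TTTGAA), the CCAAT box (CCAAT) and an E2F site (TTTCCCGC, TTTCGCGC, TTTGCCGC or TTTGGCGC), whose letters can overlap a GC box. None of these letters occurred in either stretch shown, nor before the second start of Cdkn2c. RefSeq promoters were found for 30 of the 35 tested genes, 34 promoters in all. The cell cycle homology region occurred in 5 of these 34 (14.7%), against 16% of all promoters. The CCAAT box occurred in 11 (32.4%), against 33.8% of all. The E2F letters occurred in 2 (5.88%), those of Cdk2 and Cdkn2a, against 1.86% of all. The GC box, a motif chosen after the sequences were seen, occurred in 24 (70.6%), against 32.7% of all. The GC box holds only G and C, and these matches are letters and not shown binding sites.

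Most of the cell cycle cyclins gave too few values to be tested. A mouse counts as measured when at least 1 of its columns has a value. Ccna2 and Ccnd3 were measured in all 19 mice. Ccna1, the cyclin A of the germ line, had a value in 9 mice. Ccnd2 and Ccne1 had values in 2 mice each, and Ccnf in 2. Ccnd1 and Ccnb2 had a value in 1 mouse each. Cdk4 had a value in 1 mouse, on day 5, while Cdk6 was measured in all 19 mice. The phosphatases Cdc25a and Cdc25c, which remove inhibitory phosphates from CDKs, had values in 0 mice and 1 mouse. Of the 59 probes 36 could be tested, against 60.9% of all single-gene probes. Values were seen in all 19 mice for 22 probes, in 1 or 2 mice for 11, and in none for 4 (Cdc25a, Cdk16, Cdc42ep4 and Cdc42ep5). The 23 probes left out were not tested. Without the filter on missing values, 4 of them could be estimated on day 1, 6 on day 2 and 5 on day 5, and limma called 0, with lowest adjusted p of 0.46, 0.314 and 0.867.

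**Figure D1:**
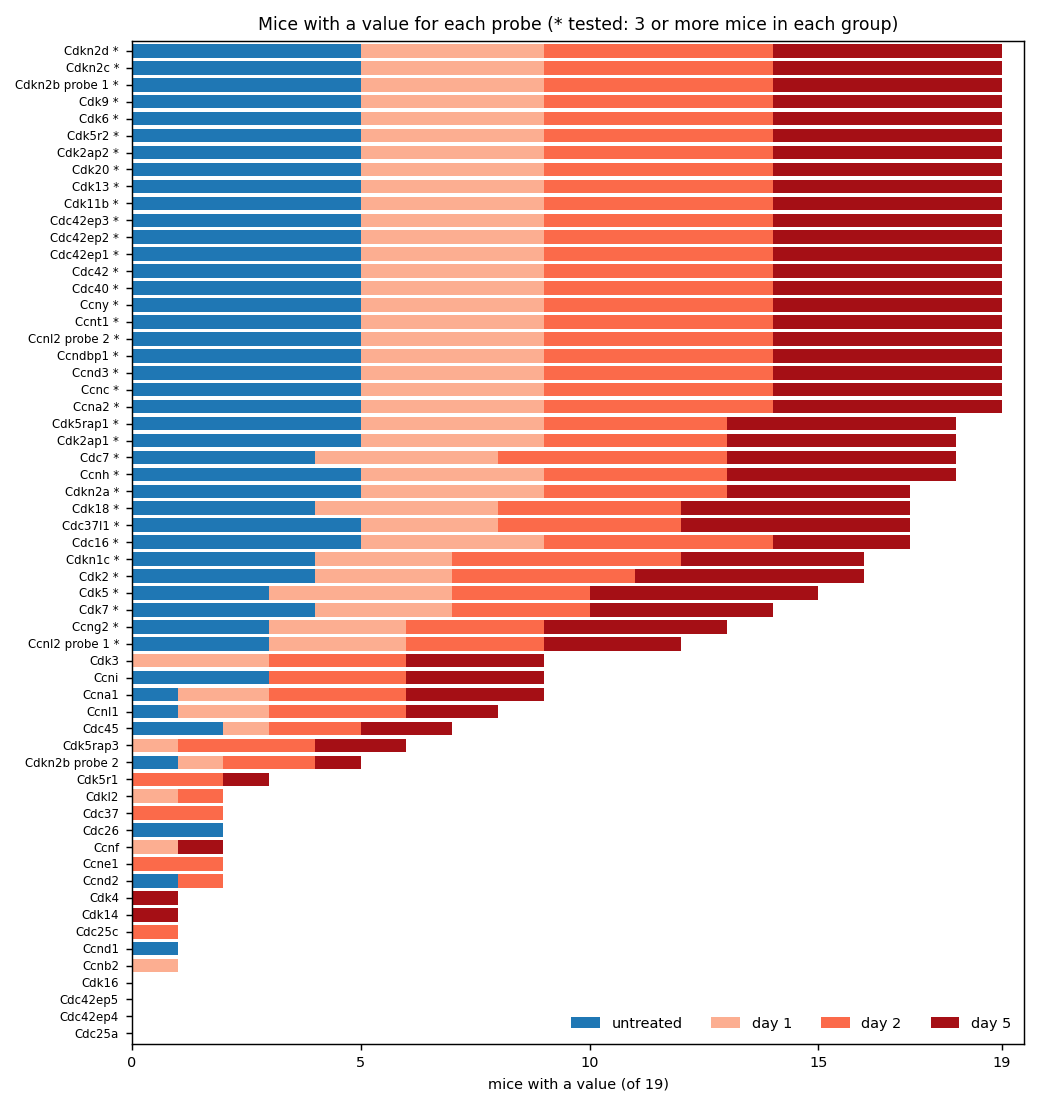
Number of mice with a value (horizontal axis, of 19) for each of the 59 probes (vertical axis), stacked by untreated mice and mice on days 1, 2 and 5 after the drug. Probes marked with a star had 3 or more mice in every group and were tested, and the 23 others include Ccnd1, Ccnd2, Ccnb2, Ccne1 and Cdk4.

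Cdkn2c fell on days 1 and 2 and Ccndbp1 fell on day 2, and no other tested cyclin, CDK, inhibitor or CDC gene of the rule passed against untreated mice. On day 1, 1 of the 36 probes passed (2.78%; limma, Benjamini-Hochberg adjustment at 0.05), against 2.33% of all 8319 probes. On day 2, 2 passed (5.56%), against 8.31% of all. On day 5 limma called 0, against 0.0721% of all. The calls of days 1 and 2 were all lower than in untreated mice, as were 1.39% and 5% of all probes on these days. At an unadjusted p under 0.05 the counts on days 1, 2 and 5 were 7, 7 and 1 of 36, against 13.2%, 20.9% and 5.22% of all probes. The shares by adjusted p lay near or below the background, and the unadjusted share of day 1, 19.4%, lay above it. The day 1 count varied with the settings. It was 7 of 36 with the mouse number as a replicate block. With both columns and the mouse as a random effect it was 5 of 36. Without the 3 mice of low technical correlation it was 3 of 27, with fewer mice and fewer probes tested. The share of all probes at an unadjusted p under 0.05 was not computed for these settings, so these counts have no background beside them.

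Between days, limma called 0 of 36 for day 2 against day 1 (0.0601% of all probes), with 0 of 36 at an unadjusted p under 0.05 as well (6.02% of all). For day 5 against day 2 it called 1 of 36, Cdkn2c, against 5.3% of all probes, or 3.8% in its direction, which was higher. The unadjusted count was 7 of 36, against 18.3%. Groups without overlap were seen for 1 of 36 probes on day 1 (8.32% of all), 3 on day 2 (8.84%) and 1 on day 5 (1.59%), for 1 for day 2 against day 1 (3.39%) and for 3 for day 5 against day 2 (7.37%).

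The intervals show how large a change could have been missed. On days 1 and 2 the 95% interval of the difference stayed within 2-fold either way for 32 of the 36 probes, against 89.4% and 87% of all probes. On day 5 it did so for 36, against 94.5%. On all 3 days it did so for 31 probes. It stayed within 1.5-fold for 21, 17 and 24 probes on days 1, 2 and 5, against 55.5%, 51.4% and 66.5% of all. The median log2 difference of the 36 probes was 0.05, 0.02 and 0.03 on days 1, 2 and 5, against 0.02, 0.01 and 0.01 over all probes. The median size of the difference, without its sign, was 0.15, 0.21 and 0.13, against 0.16, 0.19 and 0.12.

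**Figure D2:**
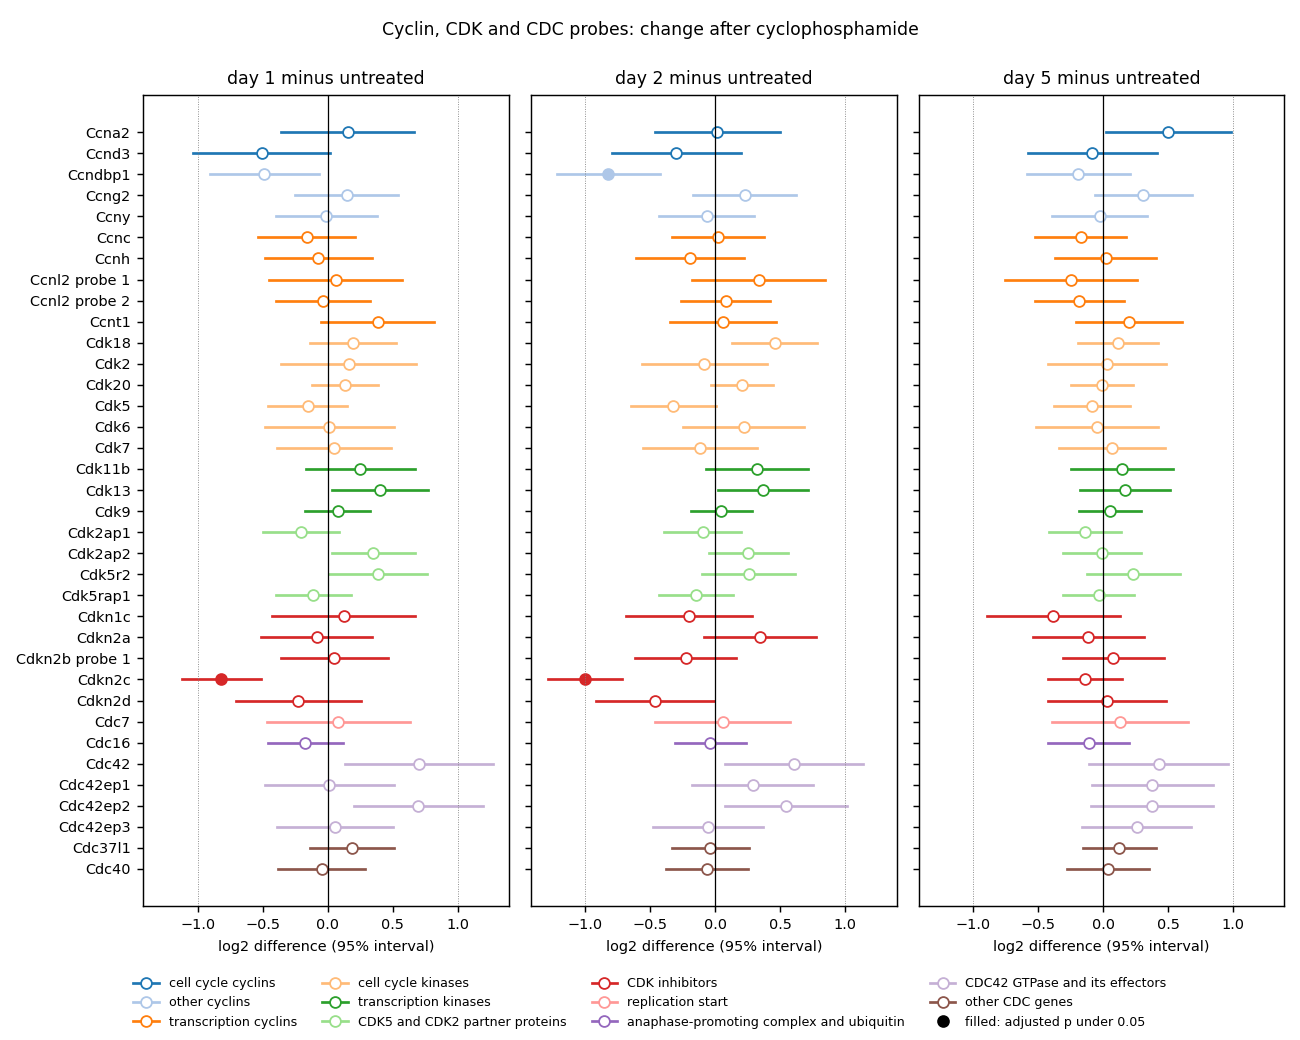
Log2 difference from untreated mice (horizontal axis, 0 for no difference, dotted lines at 2-fold) for each of the 36 tested probes (vertical axis, coloured by role) on days 1, 2 and 5. Points are fitted differences, bars their 95% intervals, and filled points have an adjusted p under 0.05, which only Cdkn2c (days 1 and 2) and Ccndbp1 (day 2) do.

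Among the CDK inhibitors, Cdkn2c fell on days 1 and 2, and its values on day 5 overlapped those of untreated mice. Its log2 ratios were -0.53, -0.24, -0.33, -0.53 and -0.33 in untreated mice. On day 1 they were -1.15, -1.33, -1.18 and -1.18. On day 2 they were -1.07, -1.30, -1.70, -1.27 and -1.63. The highest value of days 1 and 2, -1.07, lay below the lowest untreated value, -0.53. On day 5 the values were -0.18, -0.41, -0.76, -0.70 and -0.61, which overlapped the untreated range and lay above every day 2 mouse. The level on day 1 was 1.76-fold lower than in untreated mice (95% interval 1.43 to 2.18; log2 difference -0.82 ± 0.15 SE; limma adjusted p = 0.00329). On day 2 it was 2.01-fold lower (1.65 to 2.45; -1.01 ± 0.14 SE; limma adjusted p = 5.42e-05). Without the 3 mice of low technical correlation the call held on day 1 (-0.82, adjusted p 0.0198) and on day 2 (adjusted p 0.00113). With quantile normalization between arrays, the day 2 difference was -0.65 and the adjusted p 0.0186. Day 2 did not pass against day 1 (-0.19 ± 0.15 SE; limma adjusted p = 0.913). Day 5 was 1.82-fold higher than day 2 (1.49 to 2.22; 0.86 ± 0.14 SE; limma adjusted p = 0.000445), a call that was lost under quantile normalization (0.43, adjusted p 0.189). Day 5 against untreated mice gave -0.14 ± 0.14 SE (95% interval -0.43 to 0.14; limma adjusted p = 0.952).

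The other inhibitors did not pass. Cdkn2d, the INK4 protein p19, had log2 ratios of -1.03, -0.94, -0.29, -0.39 and -1.59 on day 2, against -0.04, -0.27, -0.72, -0.25 and -0.65 in untreated mice. The groups overlapped, and the log2 difference was -0.46 ± 0.22 SE (limma adjusted p = 0.226), or -0.28 without day 2 mouse 5. Cdkn2a, the locus of p16 and of the p53 activator p19Arf, differed by -0.08, 0.34 and -0.11 on days 1, 2 and 5. Cdkn2b probe 1, for the INK4 protein p15, differed by 0.05, -0.23 and 0.08, and its second probe had values in 5 mice and was not tested. Cdkn1c, the Kip protein p57, differed by 0.12, -0.21 and -0.38. All 4 measured day 5 mice had a lower Cdkn1c ratio (-0.30 to -0.04) than the 4 measured untreated mice (0.01 to 0.50), and its adjusted p was 0.923. Cdkn1a, which the rule leaves out, rose by 1.11 ± 0.24 SE on day 1 (limma adjusted p = 0.0159) in the same mice.

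Of the cyclins of the cell cycle, Ccna2 and Ccnd3 could be tested and neither passed. Cyclin A2 drives S phase and the entry into mitosis. Its log2 ratios in untreated mice were -0.49, -0.74, -0.18, -0.85 and -0.31. Day 1 gave 0.34, -0.25, -1.20 and -0.34, and day 2 gave -1.14, -0.67, -0.11, -0.37 and -0.22. Day 5 gave -0.04, 0.08, -0.32, 0.03 and 0.19, the highest group mean of the 4 groups. The differences were 0.15 ± 0.25, 0.01 ± 0.23 and 0.50 ± 0.23 (SE) on days 1, 2 and 5, and the day 5 one had an unadjusted p of 0.0417 and a limma adjusted p of 0.923. The day 1 mice spread from -1.20 to 0.34, and the 95% interval of the day 1 difference ran from -0.36 to 0.66. Cyclin D3, the D-type cyclin of lymphocytes and red cell precursors, had log2 ratios of -1.10, -0.73, -1.37 and -1.46 on day 1, against -1.11, -0.59, -0.39, -0.53 and -0.66 in untreated mice. Its difference on day 1 was -0.51 ± 0.25 SE (limma adjusted p = 0.398), on day 2 -0.30 ± 0.24 and on day 5 -0.08 ± 0.24.

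Ccndbp1, listed with the other cyclins, fell on day 2. Its log2 ratios were 0.18, 0.36, 0.28, -0.02 and -0.09 in untreated mice. On day 1 they were -0.01, -1.06, -0.17 and -0.16, and on day 2 they were -0.91, -0.56, -0.66, -0.24 and -1.06. The highest day 2 value, -0.24, lay below the lowest untreated value, -0.09. The day 2 level was 1.77-fold lower (95% interval 1.35 to 2.33; log2 difference -0.82 ± 0.19 SE; limma adjusted p = 0.00853), and -0.80 with an adjusted p of 0.0413 without the mice of low technical correlation. Day 1 gave -0.49 ± 0.20 SE (limma adjusted p = 0.264), a value that rests on day 1 mouse 2, and without that mouse it was -0.25. Day 5 gave 0.23, -0.23, -0.06, -0.33 and 0.15 (-0.19 ± 0.19 SE, limma adjusted p = 0.952), and day 5 against day 2 gave 0.63 ± 0.19 SE (limma adjusted p = 0.0559). Ccng2, a cyclin that inhibits the cycle, differed by 0.15, 0.22 and 0.31 on days 1, 2 and 5 and was measured in 3 of 5 untreated mice. Ccny, a membrane-bound cyclin that activates Cdk14, differed by -0.01, -0.07 and -0.03.

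**Figure D3:**
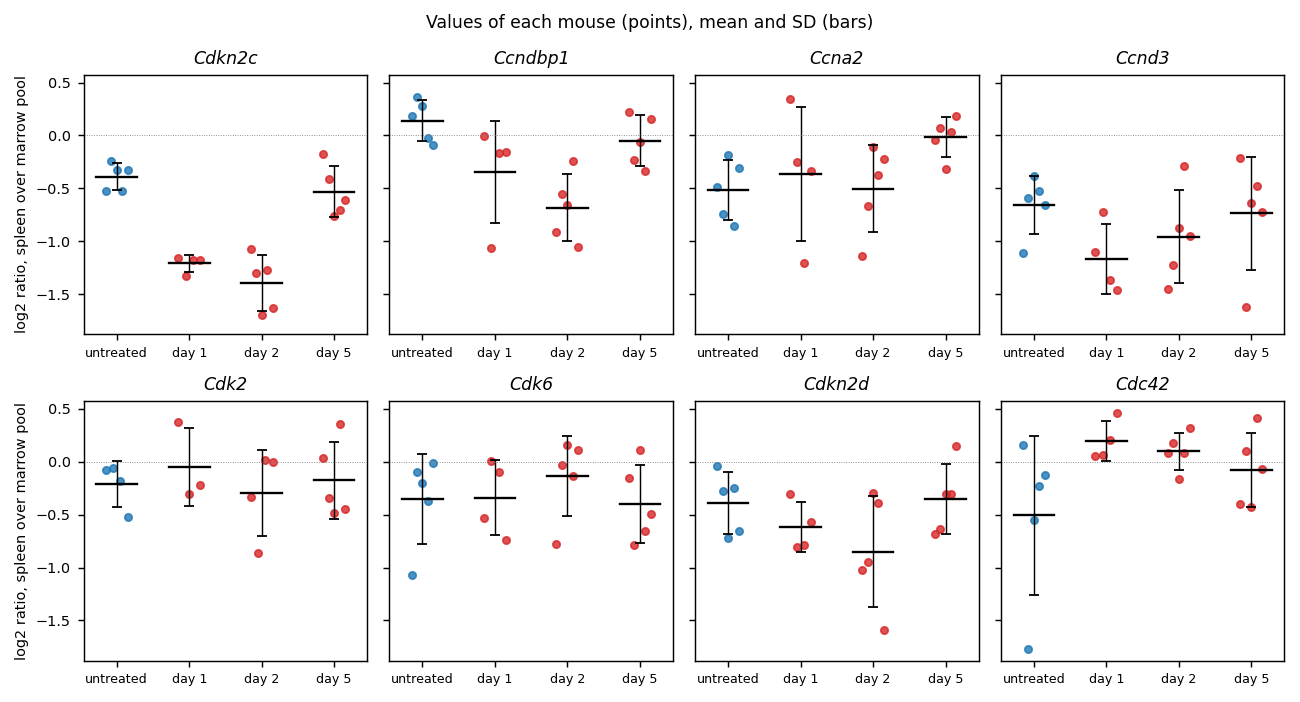
Log2 ratio of spleen over the marrow pool (vertical axis) for 8 of the probes in untreated mice and on days 1, 2 and 5 (horizontal axis). Points are mice, long bars the mean and thin bars 1 SD, and the Cdkn2c panel alone has all treated mice of days 1 and 2 below the untreated mice.

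Of the 6 tested probes listed as cell cycle kinases, a list that also holds Cdk5, Cdk18 and Cdk20, none passed. Cdk4 was not tested. Cdk2, the partner of cyclins E and A, was measured in 16 mice and differed by 0.16 ± 0.25, -0.08 ± 0.23 and 0.03 ± 0.22 (SE) on days 1, 2 and 5. Its 2 technical columns gave opposite signs on day 2, 0.30 in column 1 and -0.68 in column 2, and neither passed. Cdk6, a partner of D-type cyclins that Cdkn2c binds, differed by 0.01 ± 0.24, 0.22 ± 0.23 and -0.05 ± 0.23, and by -0.17, 0.04 and -0.23 without untreated mouse 1. Cdk7, which activates other CDKs, differed by 0.05, -0.12 and 0.07. Cdk20 differed by 0.13, 0.21 and -0.01. Cdk5, a kinase best known from neurons, differed by -0.15, -0.32 and -0.08, with a limma adjusted p of 0.245 on day 2. Cdk18 was higher on day 2 in all 4 measured mice (0.32, 0.28, 0.41 and 0.64) than in the 4 measured untreated mice (0.16, -0.01, 0.13 and -0.45), yet its difference of 0.46 ± 0.16 SE had a limma adjusted p of 0.0845. In the same mice Cdk1, left out by the rule, fell on days 1 and 2, with log2 differences of -1.62 ± 0.18 and -1.90 ± 0.17 (SE; limma adjusted p 2.57e-05 and 3.25e-07).

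Among the transcription cyclins and kinases, none of 5 cyclin probes and none of 3 kinase probes passed on any day. Cyclin T1 with Cdk9 releases paused RNA polymerase II, and Ccnt1 differed by 0.38 ± 0.21, 0.06 ± 0.20 and 0.20 ± 0.20 (SE). Without untreated mouse 3, which stood at -1.37, the Ccnt1 differences were 0.15, -0.17 and -0.03. Its technical columns 1 and 2 gave opposite signs on day 2 (-0.26 and 0.37) and on day 5 (-0.16 and 0.56). Cdk9 differed by 0.07, 0.05 and 0.06, with standard errors of 0.12, 0.11 and 0.11. Cdk13, which phosphorylates the same polymerase, differed by 0.40 ± 0.18, 0.37 ± 0.17 and 0.17 ± 0.17 (limma adjusted p 0.317, 0.21 and 0.952). Without the 3 mice of low technical correlation the Cdk13 differences were 0.12, 0.09 and -0.06, and without untreated mouse 2 alone they were 0.24, 0.21 and 0.01. Cdk11b differed by 0.25, 0.32 and 0.15. Ccnc, of the Mediator kinase module, differed by -0.16, 0.02 and -0.17, and Ccnh, the partner of Cdk7, by -0.07, -0.19 and 0.02. Cyclin L2 acts in splicing, and its probes gave 0.06 and -0.04 on day 1, 0.33 and 0.08 on day 2, and -0.25 and -0.18 on day 5. Probe 1 of Ccnl2 was measured in 3 mice of each group.

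Among genes named for proteins that bind CDK5 or CDK2, Cdk5r2, which encodes the CDK5 activator p39, differed by 0.39 ± 0.18 SE on day 1 (limma adjusted p = 0.361), 0.26 on day 2 and 0.23 on day 5. Untreated mouse 2 had the lowest Cdk5r2 value, and without it the differences were 0.20, 0.07 and 0.05. Cdk2ap1 differed by -0.21, -0.10 and -0.14, Cdk2ap2 by 0.35, 0.25 and -0.01, and Cdk5rap1 by -0.11, -0.15 and -0.03. Cdc7, the kinase that fires replication origins, had log2 ratios of -0.73 to -0.34 in the 4 measured untreated mice and differed by 0.08, 0.06 and 0.13 on days 1, 2 and 5. Cdc16, a subunit of the anaphase-promoting complex, differed by -0.17, -0.04 and -0.11. Cdc40, a splicing factor, and Cdc37l1, a co-chaperone, differed by at most 0.19 in size on any day.

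The CDC42 group held the largest positive differences on days 1 and 2, none of which passed. Cdc42 had log2 ratios of 0.05, 0.06, 0.21 and 0.46 on day 1, against 0.16, -1.77, -0.55, -0.23 and -0.13 in untreated mice. The groups overlapped, and the log2 difference was 0.70 ± 0.27 SE (limma adjusted p = 0.219), or 0.38 without untreated mouse 2. On day 2 it was 0.60 ± 0.26 SE (limma adjusted p = 0.171), or 0.29 without that mouse, and on day 5 it was 0.43 ± 0.26 SE, or 0.11 without it. Untreated mouse 2 is one of the mice whose technical columns correlated below 0.7. Cdc42ep2, an effector of Cdc42, had 0.85, 0.90, 0.00 and 0.35 on day 1, against 0.10, -0.35, -0.40, -0.27 and 0.04 in untreated mice. Its difference was 0.70 ± 0.24 SE on day 1 (limma adjusted p = 0.143), 0.54 ± 0.22 on day 2 and 0.37 ± 0.22 on day 5. Cdc42ep1 differed by 0.01, 0.29 and 0.38, and by -0.22, 0.06 and 0.15 without untreated mouse 2, which stood at -0.86 while the other untreated mice lay between 0.13 and 0.48. Cdc42ep3 differed by 0.05, -0.06 and 0.26.

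Against the marrow pool, the untreated means of the 36 probes had a median log2 ratio of -0.09, against -0.03 over all tested probes. All measured untreated mice lay below 0 for 10 of 36 probes (27.8%), against 16.8% of all tested probes. For 1 of 36 probes, Cdkn1c, all lay above 0 (2.78%), against 12.1% of all. Cdc42ep3 was lowest, with a mean of -1.17 ± 0.14 (SD, 5 mice), followed by Ccnd3 at -0.66 ± 0.27 (SD, 5 mice). These log ratios carry any difference between the dyes, since no array had the dyes turned.

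Genes around the cell cycle engine were described from lists of pathways. Over all probes, 1.39% fell on day 1 and 5% on day 2. Among switches of the mitotic kinase, 1 of 8 probes fell on day 1 and 4 of 8 on day 2, and none rose. Cks2, a CDK-binding subunit, had log2 differences of -1.52 ± 0.19 on day 1 and -1.52 ± 0.18 on day 2 (SE). On day 2 Bub1b, of the spindle checkpoint, differed by -1.15, Incenp, of the chromosomal passenger complex, by -0.90, and Fzr1, an activator of the anaphase-promoting complex, by -0.75, each with a limma adjusted p of at most 0.0447. The median log2 difference of the list was -0.47 on day 1 and -0.62 on day 2, against 0.02 and 0.01 over all probes. Among licensing and replication genes, 3 of 14 probes fell on day 1 and 6 on day 2, and the list's medians were -0.38 and -0.52. Those that fell on day 1 were Rfc4, of the clamp loader (-1.43), Mcm10, a factor of replication initiation (-1.05), and Orc5, of the origin recognition complex (-0.58). On day 2 Mcm6, of the replicative helicase, fell (-1.12), as did Pcna, the sliding clamp (-0.96), Mcm10 (-0.95 in the probe that had passed on day 1) and Orc5 (-0.69). In each of these lists 3 probes rose on day 5 against day 2, as did 3.8% of all probes. In the other 3 lists no probe passed on any day against untreated mice. These were 0 of 7 for RB and E2F, 0 of 6 for the anaphase-promoting complex and SCF, and 0 of 5 for the checkpoint. Counts of 0 can occur in lists this short, since 2.33%, 8.31% and 0.0721% of all probes passed on days 1, 2 and 5.

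Lists of cell type markers were described in the same way. Over all probes, 1.39% fell and 0.938% rose on day 1, and 5% fell and 3.31% rose on day 2. On day 5, 0.0481% rose. For day 5 against day 2, 1.5% fell and 3.8% rose. Of 13 probes of red cell precursor markers, 4 fell on day 1 and 7 on day 2, and 6 rose on day 5 against day 2. The list's mean log2 ratio ran from -0.48 to -0.11 in untreated mice, from -1.29 to -0.65 on day 1, from -1.92 to -0.95 on day 2 and from -0.60 to 0.08 on day 5. The list's median log2 difference was -0.31 on day 1 and -0.86 on day 2, and its 13 probes stand for 11 genes. Alas2, which starts heme synthesis in red cell precursors, had a log2 difference of -3.94 ± 0.32 SE on day 2, the lowest of all tested probes. The list's ranges on days 1 and 2 lay below the untreated range, as Cdkn2c did. The mitotic switch list did so too (-1.34 to -0.52 and -1.42 to -0.66, against -0.41 to -0.23 in untreated mice). The replication list also did (-0.57 to -0.45 and -0.76 to -0.39, against -0.32 to 0.07 in untreated mice). Of 6 B cell probes and 6 T cell probes, 0 of each passed on days 1 and 2. Lists of so few probes can hold 0 calls at the shares of all probes. The B cell list ran from 0.39 to 0.78 in untreated mice, from 0.70 to 0.71 on day 1, from 0.48 to 0.84 on day 2 and from 0.32 to 0.57 on day 5. Macrophage markers ran from 0.22 to 0.75 in untreated mice, from 0.89 to 1.52 on day 1, from 0.56 to 1.61 on day 2 and from 0.52 to 1.42 on day 5, and 1 of 8 probes rose on day 1 and 2 on day 2. Against untreated mice, 1 of 9 stroma probes, Col14a1, rose on days 1 and 2, 1 of 3 megakaryocyte probes, Itga2b, rose on days 2 and 5, and 0 of 6 neutrophil probes and 0 of 5 plasma cell probes passed. For day 5 against day 2, 2 B cell probes fell (Cd22, -0.96, and Ms4a1, -0.66), as did Siglec1 of the macrophage list (-0.99) and Col14a1 (-1.08), while C1qa of the macrophage list (1.76) and Ltf of the neutrophil list (1.48) rose. The part of these cell types in the Cdkn2c and Ccndbp1 values was not tested.

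**Figure D4:**
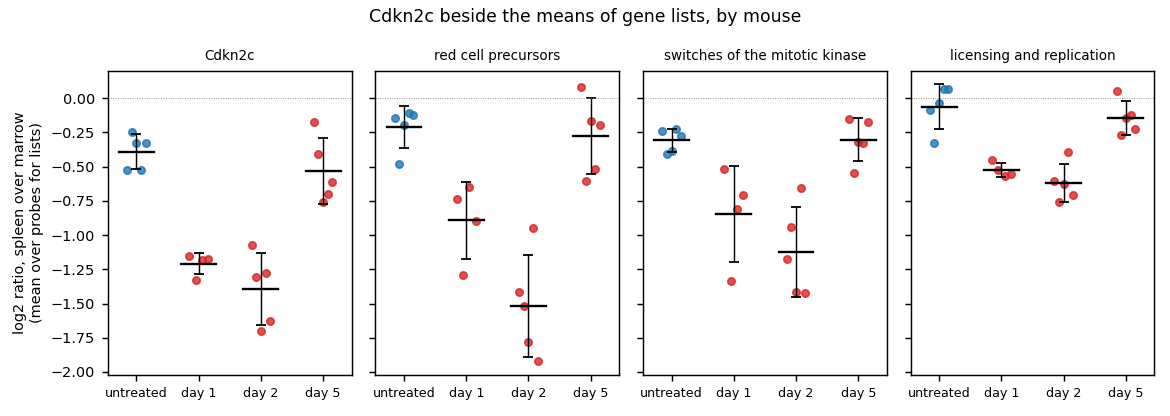
Log2 ratio of spleen over the marrow pool (vertical axis) by mouse in untreated mice and on days 1, 2 and 5 (horizontal axis), for Cdkn2c and for the means of the red cell precursor, mitotic switch and replication lists. Points are mice, long bars the mean and thin bars 1 SD, and on days 1 and 2 Cdkn2c lay between -1.70 and -1.07 and the red cell precursor list between -1.92 and -0.65.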

How the data were processed

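The deposited values are log2 ratios of splenocyte RNA over a bone marrow pool on 2-colour arrays. The authors' background correction, spot filter, normalization, software and base of the logarithm (taken as 2) were not given in the sources used here. Per the labels' protocols, RNA was extracted, amplified and labelled with Cy5 (spleen) or Cy3 (pool). Each mouse entered as the mean of its 2 technical columns. The filter on missing values (3 or more mice in every group) kept 8319 of 13443 probes. Group means of all 4 groups were estimated by lmFit and eBayes (limma 3.58.1, R 4.3.3) with 5.52 prior degrees of freedom, and p-values are two-sided, adjusted by Benjamini-Hochberg over all probes at 0.05. Folds are 2 to the power of the difference. The code of the fit was run on simulated data with independent normal noise of equal spread in every group. Such data cannot show how well the model holds for these arrays.

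Probes have a gene name through the platform table (10032 with 1 gene, 170 with several, 3241 with none), updated to RefSeq symbols of GRCm38.p6 for 10028. Members and gene lists were chosen with earlier results of these data known. The named members, the set followed under the alternatives, were chosen by a rule. It took all members that passed in any comparison and the 5 largest rises and falls of each day. It also took the D-, A-, B- and E-type cyclins, Cdk2, Cdk4, Cdk6 and the inhibitors, where tested. Values of other members, such as Cdk7, Cdk9 and Cdc7, are printed as well but are not in this set. Genes of pathway lists were named up to 4 a list and day by smallest p. Mouse numbers were not used to pair mice in the main fit. The 27 same-numbered pairs of mice had a mean correlation of -0.00472 (-0.249 to 0.325), and 4 were over 0.1. Pairs of different number were not compared, so these values cannot exclude that some numbers pair mice. Labels name separate biological replicates. The p-values set a group difference against the spread between mice within groups, estimated over all 4 groups and moderated by eBayes. Alternatives were other scalings, filters, weights, handling of technical columns, only the groups compared, a replicate block, and leaving out mice. No slide or scan batch is given, so none was tested.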

Additional observations from a re-analysis of the deposited data

Results flagged for a closer look

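The 36 tested probes gave 129 sets of 4 or 5 mice of a group, of which 6 held a mouse apart from the others, and chance gives about 1 in 20. The gap is given as a share of the group's whole range. Cdkn2c had a gap share of 0.839 in day 1 mouse 2, with a log2 ratio of -1.33 against -1.18 in the nearest mouse, the lowest of a narrow group. Ccndbp1 had a gap share of 0.846 in day 1 mouse 2, with -1.06 against -0.17. Ccnt1 had a gap share of 0.824 in untreated mouse 3, with -1.37 against -0.35. Cdc42ep1 had a gap share of 0.741 in untreated mouse 2, with -0.86 against 0.13. Cdkn2a had a gap share of 0.851 in day 5 mouse 5, with -0.86 against -0.05. Cdk9 had a gap share of 0.869 in untreated mouse 2, with 0.13 against 0.01 in the nearest mouse, the highest of a narrow group. Day 1 mouse 2 and untreated mouse 2 appear for 2 genes each.

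The effect of the drug on Cdkn2c differed between day 5 and day 2 in the main fit. The log2 difference from untreated mice was higher on day 5 by 0.864 (limma adjusted p = 0.000445), and all 5 day 5 mice lay above all 5 day 2 mice. The call was lost under quantile normalization (0.43, limma adjusted p 0.189). With arrays scaled to equal spread it was 0.69 (limma adjusted p 0.0438). The SD of the log2 ratios of a mouse ran from 0.51 to 0.70 on day 2. It ran from 0.38 to 0.52 on day 5 and from 0.41 to 0.53 in untreated mice.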

How the results depend on the processing

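Over 32 alternatives each, Cdkn2c passed in 32 on day 1 (log2 difference -0.86 to -0.75) and in 32 on day 2 (-1.09 to -0.65), and Ccndbp1 passed in 32 on day 2 (-0.94 to -0.73). Counts of members that passed were within 1.5 times the reported ones in 152 of 160 cases. The others were the following. For day 1 against untreated mice the count was 2 with both columns and the mouse as a random effect, which added Cdc42ep2 (0.70, adjusted p 0.036). For day 5 against day 2 it was 0 with quantile normalization, where the adjusted p of Cdkn2c was 0.189, and 2 with the random effect, with values in every mouse, and with array weights; the added gene was Ccndbp1 (adjusted p 0.00308, 0.04 and 0.0402). Leaving out 1 mouse at a time gave 1 to 1 probes on day 1, 2 to 3 on day 2, 0 to 0 on day 5, 0 to 0 for day 2 against day 1, and 1 to 2 for day 5 against day 2. The day 2 count of 3 added Cdk13 (0.52, adjusted p 0.0386 without untreated mouse 3), and the count of 2 came without day 1 mouse 2, day 2 mouse 4 or day 5 mouse 4. Cdk18 passed on day 2 in technical column 2 alone (0.57, adjusted p 0.0472). Cdk13 was 0.12 on day 1 and 0.09 on day 2 without the 3 mice of low technical correlation. Cdkn2c on day 2 against day 1 was 0.19 under quantile normalization, against -0.19 as reported. With the mouse number as a replicate block the counts were 1, 2, 0, 0 and 1, as without it, and no named member changed its call. Over all probes the block gave 178, 603, 0, 3 and 383 calls in the same order of comparisons. Over all probes, the counts were 194, 691 and 6 on days 1, 2 and 5 against untreated mice, 5 for day 2 against day 1 and 441 for day 5 against day 2. Over the alternatives they ran from 109 to 452, 338 to 974, 0 to 24, 0 to 27 and 83 to 730, and each highest count came with the random effect. The cause of these changes was not tested. No direction of a called result turned. Of 3425 values of named members under alternatives, 3396 kept their side of the threshold and moved by less than 1 SD, or kept their call, and 29 did not. Group sizes of 4 and 5 mice and missing values limit what could be called.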
